A study of Mus musculus with 12 samples.

Results

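The chemokine ligands and receptors of the mouse lung were taken by gene symbol, as every gene whose symbol begins with Ccl, Cxcl, Xcl or Cx3cl, or with Ccr, Cxcr, Xcr, Ackr or Cx3cr, followed by a digit. This rule uses no measured value. It found 59 genes among the 17920 in the deposited files, of which 36 are ligands and 23 are receptors, 4 of these atypical receptors. Chemokines without such a symbol, such as Pf4 and Ppbp of platelets, fall outside it.

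Whole lung tissue of male BALB/c mice, aged 6 to 8 weeks and weighing 20 g, was profiled by sequencing of polyadenylated RNA, in a study of bovine lactoferrin in lung injury caused by lipopolysaccharide. The LPS+bLF mice had both agents. The LPS mice had 50 µL of lipopolysaccharide, the endotoxin of Gram-negative bacteria, at 1 µg/µL. The bLF mice had a daily 200 mg/kg of bovine lactoferrin, a milk protein that binds iron, and the labels name no agent for the control mice. Of 24 mice, 6 were allocated to each of the 4 groups and 3 of each were sequenced after 14 days of modelling. How and on which day LPS was given is not stated in the labels, so the time from LPS to sampling is not known here. In the treatment label the combined group is spelled LBS+BLF, while its titles read LPSBLF.

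Chemokines are small proteins that guide leukocytes along gradients, and they fall into CC, CXC, CX3C and XC families by the spacing of conserved cysteines. Most signal through G protein-coupled receptors on leukocytes, while the atypical receptors take chemokines up without G protein signalling. In lung, LPS sensed by macrophages and epithelium is known to induce CXC ligands that call in neutrophils and CC ligands that call in monocytes, largely through the transcription factor NF-κB. Other members are made at rest by epithelium, stroma or lymphatic vessels and place lymphocytes and resident cells in the tissue.

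The 12 libraries held 16714327 to 17820645 counts each, and a count of 0 allowed at most 0.168 to 0.179 CPM (counts scaled to library total; 3 counts, counting error only). The 59 genes took 0.116 to 0.227% of the counts. LPS replicate 1 stood apart, with a median correlation to the other libraries of 0.877, followed by LPS+bLF replicate 2 at 0.913, where the other 10 libraries lay between 0.941 and 0.972. LPS replicate 1 held the lowest value of 22 of the 47 tested chemokine and receptor genes (46.8%, against 44.6% of all tested genes) and the highest of 10 (21.3%, against 18.8%). Results that rest on either library are therefore also given without it. Control replicate 2 had 23.8% of its counts in 1 airway gene, Scgb1a1, against 1.68 to 7.43% in the other libraries. It held the lowest FPKM of 24% of all tested genes and of 10.6% of the 47. The effect of this share on its other FPKM values was not tested. Markers of alveolar type 2 cells, which define lung tissue, were above 0 in all 12 libraries, with a summed level of 64839 to 143367 FPKM in LPS+bLF lungs, 46265 to 181471 in LPS lungs, 78458 to 128452 in bLF lungs and 76268 to 139364 in control lungs. Markers of brown and white fat summed to 7932 FPKM in LPS+bLF replicate 2, 2101 in bLF replicate 1 and 2900 in control replicate 1, against 3.27 to 79.9 in the other 9 libraries. Skeletal muscle markers reached 4218 FPKM in LPS+bLF lungs and at most 180 in the other groups. Squamous epithelium markers reached 907 FPKM in LPS+bLF lungs and at most 14.4 elsewhere. Heart muscle markers reached 3820 FPKM in LPS+bLF, 396 in LPS, 4744 in bLF and 963 in control lungs.

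The promoters of 6 ligands are shown first. Ccl6, Ccl9, Cxcl3 and Cxcl10 were higher in every LPS lung than in every control lung. Cxcl1 and Cxcl2 are neighbours and relatives of Cxcl3. The promoters of Cxcl14, also higher in every LPS lung, and of Cxcl15, which lies between Cxcl3 and Cxcl1, are not printed. Cxcl1, Cxcl2 and Cxcl3 are neutrophil attractants that lie in 1 cluster of chromosome 5, Cxcl10 attracts activated T cells and is known as an interferon target, and Ccl6 and Ccl9 are neighbouring macrophage ligands of chromosome 11. Each sequence is the 250 bases before the gene's annotated start, 5′ to 3′ on the gene's own strand, from RefSeq on GRCm38.p6. Capitals mark matches to an NF-κB motif (GGG, any 2 bases, then TTTCC), to an interferon response motif (TTTC, any 2 bases, then TTTC) or to an AP-1 motif (TGANTCA), each searched on both strands. The regions are chr5:90890995-90891244 (plus strand) for Cxcl1, chr5:90903649-90903898 (plus) for Cxcl2, chr5:90785851-90786100 (plus) for Cxcl3, chr5:92348890-92349139 (minus) for Cxcl10, chr11:83593088-83593337 (minus) for Ccl6 and chr11:83578637-83578886 (minus) for Ccl9.
Cxcl1: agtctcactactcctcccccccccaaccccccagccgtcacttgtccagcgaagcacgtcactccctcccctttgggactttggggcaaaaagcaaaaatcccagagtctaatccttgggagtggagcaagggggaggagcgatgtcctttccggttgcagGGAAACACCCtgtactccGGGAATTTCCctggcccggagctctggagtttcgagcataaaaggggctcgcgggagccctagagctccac
Cxcl2: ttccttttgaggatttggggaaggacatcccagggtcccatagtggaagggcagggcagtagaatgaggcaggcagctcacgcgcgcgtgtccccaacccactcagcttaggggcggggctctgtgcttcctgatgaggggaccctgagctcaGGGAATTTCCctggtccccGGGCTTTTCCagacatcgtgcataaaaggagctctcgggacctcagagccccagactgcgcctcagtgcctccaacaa
Cxcl3: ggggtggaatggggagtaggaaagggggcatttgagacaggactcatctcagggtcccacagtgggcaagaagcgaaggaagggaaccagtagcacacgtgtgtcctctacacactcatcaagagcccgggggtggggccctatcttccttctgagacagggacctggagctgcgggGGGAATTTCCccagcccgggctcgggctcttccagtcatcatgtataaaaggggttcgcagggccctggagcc
Cxcl10: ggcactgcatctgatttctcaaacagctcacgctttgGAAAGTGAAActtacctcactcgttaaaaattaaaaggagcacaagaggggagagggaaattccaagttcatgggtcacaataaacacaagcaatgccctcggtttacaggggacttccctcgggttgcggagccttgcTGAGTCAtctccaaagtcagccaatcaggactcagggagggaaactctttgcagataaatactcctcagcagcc
Ccl6: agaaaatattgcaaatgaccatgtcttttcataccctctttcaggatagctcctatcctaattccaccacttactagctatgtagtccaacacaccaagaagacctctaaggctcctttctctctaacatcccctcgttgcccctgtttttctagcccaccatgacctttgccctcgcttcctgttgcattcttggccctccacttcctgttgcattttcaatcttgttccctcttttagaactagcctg
Ccl9: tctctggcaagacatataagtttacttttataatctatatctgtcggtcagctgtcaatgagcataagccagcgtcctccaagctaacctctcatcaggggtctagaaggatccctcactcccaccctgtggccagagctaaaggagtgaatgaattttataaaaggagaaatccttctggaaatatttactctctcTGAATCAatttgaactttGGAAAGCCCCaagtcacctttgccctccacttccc

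Cxcl1 and Cxcl2 each held 2 NF-κB matches and Cxcl3 held 1, and the string GGGAATTTCC occurred in all of these promoters, 71 to 62, 97 to 88 and 73 to 64 bases before the start. Cxcl10 held the interferon motif 213 to 204 bases and the AP-1 motif 74 to 68 bases before its start. Ccl9 held an NF-κB match (GGAAAGCCCC) and an AP-1 match, and the Ccl6 window held none of the 3 motifs. The Cxcl15 window, not printed, also held none of them. Some genes, among them Ccl2, Ccl4, Ccl5, Ccl7, Cxcl5, Cxcl16 and Ccr7, had no matched promoter and were not searched. A promoter was matched for 46 of the 59 genes. The NF-κB motif was found in 6 of them (Cxcl1, Cxcl2, Cxcl3, Ccl9, Ccl20 and Ccr3; 13%), against 1.65% of the promoters of all 27025 genes in the table. The interferon motif was found in 3 (Cxcl10, Cxcl14 and Ccl19; 6.52%, against 3.46%) and the AP-1 motif in 6 (Cxcl10, Ccl9, Ccl27a, Ccl27b, Ccr3 and Ccr4; 13%, against 7.82%). These are matches of letters in a fixed window and do not show binding. Only 1 form of each motif was searched. A window without a match, such as that of Cxcl10 for NF-κB, may hold another form.

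Levels per length (FPKM, fragments scaled to transcript length and library total) differed widely between these genes. Over the 12 libraries, 4 genes averaged at least 100 FPKM, all ligands: Cxcl15 (450.4), Ccl21a (229), Ccl5 (124) and Ccl6 (101). Another 11 averaged 10 to 100 FPKM, namely the ligands Cxcl16 (59.3), Cxcl12 (41.0), Cxcl14 (31.6), Cxcl17 (21.3), Ccl17 (14.5), Cx3cl1 (14.0), Ccl9 (13.2) and Ccl27a (11.8) and the receptors Cxcr4 (26.9), Ackr2 (12.3) and Ackr3 (10.3). A further 24 averaged 1 to 10 FPKM and 20 averaged under 1 FPKM, among them 11 of the 23 receptors. By place, 12 ligands lay on chromosome 11, 9 ligands on chromosome 5 and 14 receptors on chromosome 9.

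A gene was tested where 3 or more of the 12 libraries reached 0.5 FPKM, which kept 47 of the 59 genes (29 ligands and 18 receptors) and 13735 genes in all. The 12 genes below this limit were Ccl1, Ccl21b, Ccl28, Cxcl2, Cxcl5, Cxcl9, Xcl1, Ccr1l1, Ccr3, Ccr4, Ccr8 and Ccr9. Among them Cxcl9, Cxcl2 and Xcl1 came closest, with a third-highest library at 0.47, 0.41 and 0.41 FPKM, while Xcr1 (0.51) and Cxcl3 (0.53) were just inside. A gene can pass this limit through 1 group alone, as Cxcl3 did through the 3 LPS libraries, so counts over the tested genes are descriptions. Several genes share sequence with near-identical copies, and their levels are uncertain: of the 50-base stretches of their transcripts, 100% recurred in other genes for Ccl21b, 98.1% for Ccl27b, 71.6% for Ccl21a, 52% for Ccl19 and 45% for Ccl27a.

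LPS was set against control to see which chemokine genes differed after LPS alone. Ccl6, Ccl9, Cxcl3, Cxcl10, Cxcl14 and the receptor Cxcr6 were higher in all 3 LPS lungs than in any control lung, and Cx3cl1 was lower in all 3. In whole tissue, a change in the number of cells of a type and a change in RNA per cell cannot be told apart. These are 6 genes above and 1 below without overlap, where 4% and 3.92% of all tested genes were so in FPKM. In the edgeR quasi-likelihood test, 10 of the 47 genes had an unadjusted p under 0.05, 9 of them higher and 1 lower, where 7.15% of all tested genes did (5.43% higher, 1.72% lower). Besides the 7 just named these were Ccr2, Ccl22 and Ccl5, all higher. With Benjamini-Hochberg adjustment over all 13735 genes none of the 47 and 0% of all genes passed, and the smallest adjusted p among the 47 was 0.412 (Ccl6). DESeq2, run as an alternative, called 2 of them, Ccl9 (adjusted p = 0.0302) and Ccl6 (adjusted p = 0.0412), among 138 genes in all (1%). Without LPS replicate 1, edgeR called 1 of them, Ccl5, among 25 genes in all (0.182%). The median log2 fold change was 0.44 over the 47 genes and −0.04 over all tested genes. Of the 47 genes 29 were higher (61.7%), against 45.7% of all tested genes. The ligands classed below as macrophage CC are Ccl3, Ccl4, Ccl5, Ccl6 and Ccl9. Of these, Ccl3, Ccl4 and Ccl5 are also products of T and NK cells and were lowest in LPS replicate 1. Ccl6 and Ccl9 were highest in that library, so the class name does not give the source. By class, the number of tested ligands with a log2 fold change above 0 was 4 of 5 macrophage CC, 4 of 6 monocyte and eosinophil CC, 1 of 3 neutrophil-attracting CXC, 1 of 1 of the Cxcr3 axis, 2 of 4 lymphoid and homeostatic, 4 of 6 T helper, skin and mucosa CC, and 2 of 4 membrane-bound and other ligands.

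LPS+bLF was set against LPS to see what lactoferrin did to LPS-treated lungs. Cxcl3, Cxcl10, Ccl6 and Cxcl14 were lower in all 3 LPS+bLF lungs than in any LPS lung, and Cx3cl1 was higher in all 3. These are 1 gene above and 4 below without overlap, where 4.15% and 4.91% of all tested genes were so in FPKM. Unadjusted p was under 0.05 for 10 of the 47 genes, 3 higher and 7 lower, against 6.91% of all tested genes (3.39% higher, 3.52% lower). Besides the 5 just named these were Ccl19 and Ccr6, higher, and Ackr3, Ccl9 and Cxcr1, lower. None of the 47 and 0% of all genes passed adjustment in edgeR (smallest adjusted p among the 47 was 0.684), and DESeq2 called none of the 47. A log2 fold change above 0 was found for 42.6% of the 47 genes and 48.5% of all tested genes. The median log2 fold change was −0.15 over the 47 genes and −0.01 over all tested genes. This median was 0.12 without LPS replicate 2 and 0.05 with limma on log2(FPKM + 0.1), so its sign depends on the setting. In the same order of classes, 0 of 5, 3 of 6, 1 of 3, 0 of 1, 3 of 4, 4 of 6 and 1 of 4 ligands had a log2 fold change above 0. Both comparisons use the same 3 LPS libraries, so a high or low LPS library moves them in opposite directions.

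**Figure D1:**
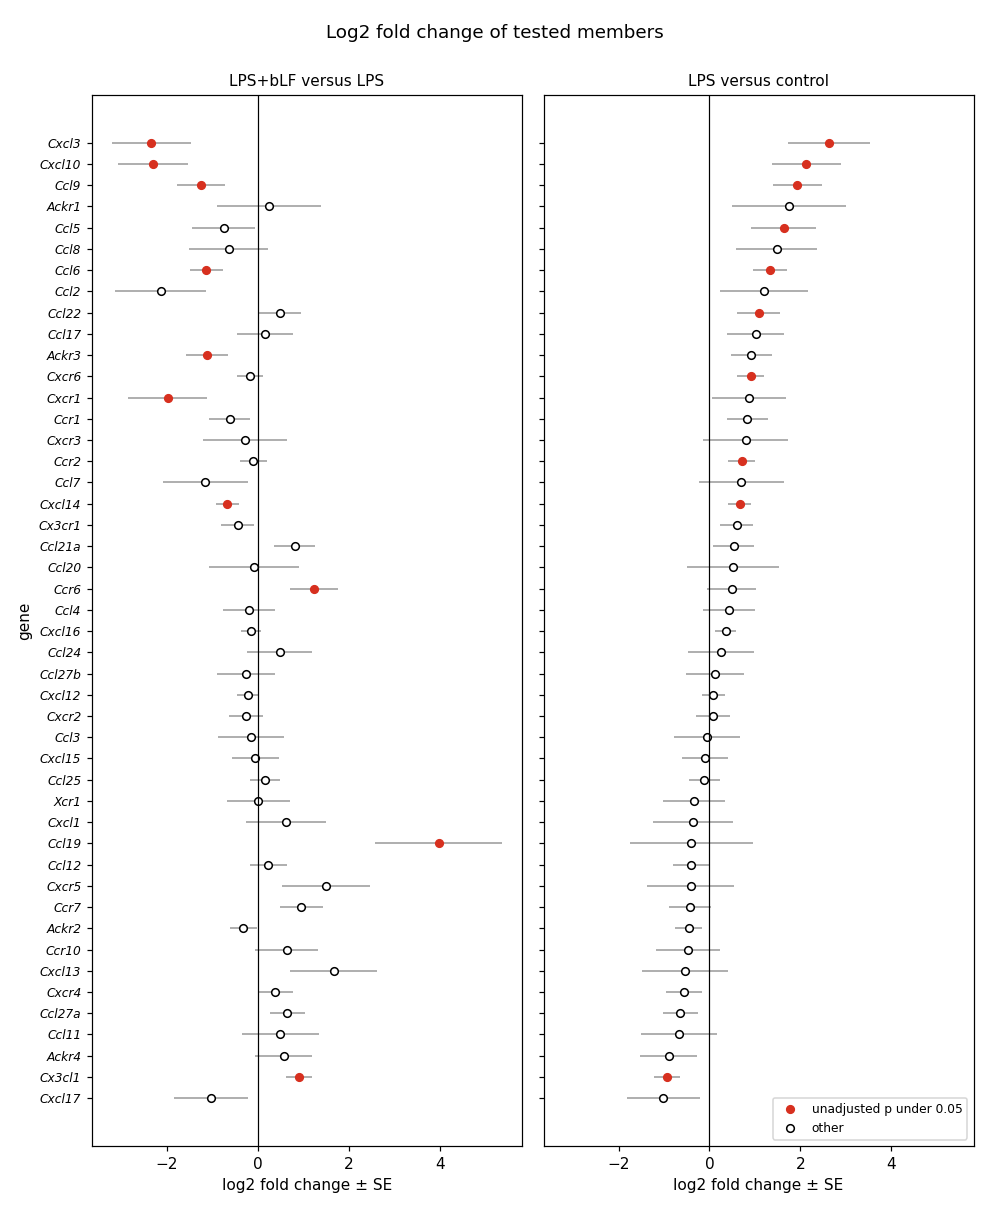
Log2 fold change ± SE of 46 of the 47 tested genes (one per line) in LPS+bLF versus LPS (left) and LPS versus control (right), 3 libraries per group. Filled points have an unadjusted p under 0.05 (10 on each side), and no gene passed adjustment over all genes. The same LPS libraries enter both panels.

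**Figure D2:**
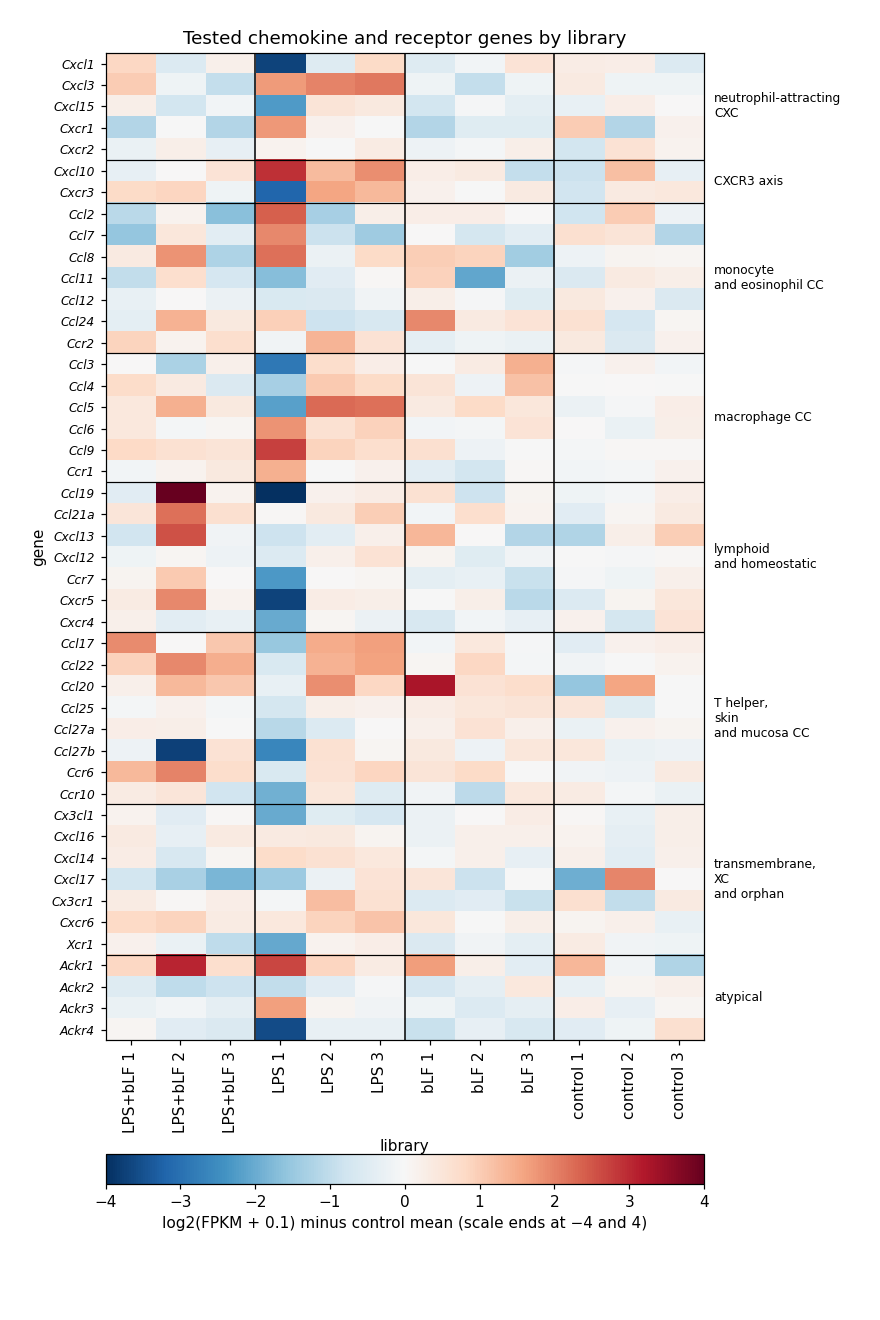
Levels of 46 of the 47 tested genes in each of the 12 libraries, as log2(FPKM + 0.1) minus the mean of the 3 control libraries, with colours ending at −4 and 4. Columns are libraries by group, and rows are genes in 8 functional classes. LPS replicate 1 is the column with the most extreme values, and LPS+bLF replicate 2 is highest for Ccl19, Ccl21a and Cxcl13.

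The CXC ligands that attract neutrophils were low except for Cxcl15, and Cxcl3 was the one whose LPS lungs were above all others. Cxcl15, a ligand of mouse airway and alveolar epithelium also called lungkine, was the most abundant chemokine gene. Cxcl15 was at 575, 295 and 458 FPKM in LPS+bLF lungs, 101, 699 and 648 in LPS lungs, 294, 473 and 377 in bLF lungs and 402, 589 and 495 in control lungs. The groups overlapped, and LPS replicate 1 held the lowest value (log2 fold change −0.09 ± 0.51 for LPS versus control). Cxcl3, a Cxcr2 ligand, was far lower. Levels of Cxcl3 were 0.29, 0.07 and 0 FPKM in LPS+bLF lungs, 0.53, 0.67 and 0.73 in LPS lungs, 0.07, 0 and 0.07 in bLF lungs and 0.15, 0.07 and 0.07 in control lungs. All LPS lungs were above all others, with a log2 fold change of 2.64 ± 0.90 for LPS versus control and −2.34 ± 0.88 for LPS+bLF versus LPS (adjusted p = 0.605 and 0.684). Cxcl3 passed the filter through the 3 LPS libraries alone, so this separation is a description. The counts behind the Cxcl3 values were 4, 1 and 0 in LPS+bLF lungs, 7, 9 and 10 in LPS lungs, 1, 0 and 1 in bLF lungs and 2, 1 and 1 in control lungs, so its levels rest on few reads.

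Cxcl1 and Cxcl2, textbook LPS-induced ligands of Cxcr2, did not separate LPS lungs from control lungs. The Cxcl1 values were 2.21, 0.80 and 1.42 FPKM in LPS+bLF lungs, 0, 0.81 and 2.14 in LPS lungs, 0.81, 1.12 and 1.82 in bLF lungs and 1.5, 1.47 and 0.80 in control lungs. The groups overlapped, the highest value was in an LPS+bLF lung, and LPS replicate 1 had a count of 0, which allows at most 0.179 CPM (LPS versus control −0.36 ± 0.88). Cxcl2 was not tested. Cxcl2 was at 0.27, 0 and 0.13 FPKM in LPS+bLF lungs, 4.16, 0.41 and 0.54 in LPS lungs, 0.41, 0.14 and 0.07 in bLF lungs and 0.21, 0.41 and 0.20 in control lungs. Every LPS+bLF lung was below every LPS lung for Cxcl2. LPS and control lungs met in a tie at 0.41 FPKM, between LPS replicate 2 and control replicate 2 (6 counts each). A single library, LPS replicate 1, with 60 counts, stood above the rest, while the other 11 libraries had 0 to 8 counts. Cxcl5, an epithelial Cxcr2 ligand, was at 0 to 0.53 FPKM in the 12 libraries.

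The receptors of these ligands are carried by neutrophils. Cxcr2 averaged 1.94 ± 0.460 FPKM in LPS+bLF lungs, 2.32 ± 0.272 in LPS lungs, 2.08 ± 0.336 in bLF lungs and 2.23 ± 0.972 in control lungs (SD, n = 3 each), and the groups overlapped. Levels of Cxcr1 were 0.16, 0.48 and 0.16 FPKM in LPS+bLF lungs, 1.88, 0.57 and 0.48 in LPS lungs, 0.16, 0.32 and 0.32 in bLF lungs and 1.09, 0.16 and 0.56 in control lungs. Cxcr1 overlapped between LPS+bLF and LPS lungs, and its log2 fold change between them was −1.98 ± 0.87 (adjusted p = 0.684), and −0.85 without LPS replicate 1. The summed level of 15 neutrophil markers was 516 to 654 FPKM in LPS+bLF lungs, 609 to 2240 in LPS lungs, 451 to 735 in bLF lungs and 337 to 934 in control lungs, highest in LPS replicate 1, and 7 of the 13 tested had an unadjusted p under 0.05 as higher in LPS than in control, against 5.43% of all tested genes. Elane was at 0 in 4 libraries and Mpo in 1. The part of neutrophil number in these values was not tested.

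The Cxcr3 axis recruits effector T cells and NK cells. Cxcl10 was higher in LPS lungs than in all the others. The Cxcl10 values were 0.46, 0.60 and 0.92 FPKM in LPS+bLF lungs, 5.23, 1.56 and 2.43 in LPS lungs, 0.74, 0.80 and 0.26 in bLF lungs and 0.28, 1.49 and 0.46 in control lungs. The log2 fold change was 2.13 ± 0.76 for LPS versus control and −2.31 ± 0.77 for LPS+bLF versus LPS (adjusted p = 0.631 and 0.684). Control replicate 2 came close to LPS replicate 2, and after scaling of counts by TMM factors LPS and control lungs overlapped. Without LPS replicate 1 the log2 fold change for LPS versus control was 1.32. For LPS+bLF versus LPS it lay between −2.68 and −1.45 when libraries were left out. Cxcl9, the related interferon-induced ligand, was below the filter at 0 to 1.11 FPKM. Cxcr3, their receptor, was at 1.44, 1.54 and 0.70 FPKM in LPS+bLF lungs, 0, 2.64 and 2.15 in LPS lungs, 0.93, 0.80 and 1.07 in bLF lungs and 0.43, 1.06 and 1.12 in control lungs, so LPS lungs held both the highest values and the only 0.

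The CC ligands that attract monocytes and eosinophils and their receptors had no gene with an unadjusted p under 0.05 in any of the 5 comparisons, except for Ccr2 in LPS versus control. Ccl2, the main ligand of Ccr2 on inflammatory monocytes, was high in 1 LPS lung. Ccl2 was at 0.50, 1.31 and 0.30 FPKM in LPS+bLF lungs, 6.54, 0.41 and 1.4 in LPS lungs, 1.43, 1.42 and 1.2 in bLF lungs and 0.63, 2.47 and 1.01 in control lungs. The groups overlapped, and the log2 fold change for LPS versus control was 1.2 ± 0.96 with LPS replicate 1 and −0.66 without it. For LPS+bLF versus LPS it was −2.14 ± 1.01 (adjusted p = 0.684), and −0.27 without LPS replicate 1. Ccl7 and Ccl8, which act on monocytes through several CC receptors, were likewise highest in LPS replicate 1, at 11.2 and 21.2 FPKM, against 0.91 to 4.56 and 1.68 to 16.1 FPKM in the other 11 libraries. Ccl12, a further Ccr2 ligand of the mouse, averaged 3.41 ± 0.418 FPKM in LPS+bLF lungs, 2.82 ± 0.544 in LPS lungs, 3.63 ± 0.901 in bLF lungs and 3.97 ± 1.30 in control lungs (SD, n = 3 each).

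Levels of Ccr2 were 8.73, 5.16 and 7.52 FPKM in LPS+bLF lungs, 4.28, 12.3 and 7.1 in LPS lungs, 3.54, 4.14 and 3.88 in bLF lungs and 6.26, 3.12 and 5.32 in control lungs. LPS and control lungs overlapped, with a log2 fold change of 0.71 ± 0.30 (adjusted p = 0.672), and 0.94 without LPS replicate 1. Of the eotaxins, ligands that attract eosinophils through Ccr3, Ccl11 was at 0.14 to 1.81 FPKM. The Ccl24 values were 1.39, 5.04 and 2.46 FPKM in LPS+bLF lungs, 3.63, 0.99 and 1.16 in LPS lungs, 7.22, 2.41 and 2.74 in bLF lungs and 2.88, 1.11 and 1.94 in control lungs. Ccl24 was highest in a bLF lung, and its log2 fold change for bLF versus control was 1.10 ± 0.72 with overlapping groups (adjusted p = 1.00), and 0.38 without bLF replicate 1. Ccr3 itself was at 0 to 0.04 FPKM.

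Ccl6 and Ccl9, CC ligands that macrophages and other myeloid cells make in the mouse and that bind Ccr1, had the smallest p-values of LPS versus control. Ccl6 was at 98.6, 69.2 and 77.6 FPKM in LPS+bLF lungs, 256, 111 and 138 in LPS lungs, 67.9, 69.4 and 106 in bLF lungs and 74.5, 60.99 and 85.9 in control lungs. Every LPS lung was above every other lung for Ccl6, with a log2 fold change of 1.33 ± 0.37 for LPS versus control (adjusted p = 0.412) and −1.13 ± 0.37 for LPS+bLF versus LPS (adjusted p = 0.684). LPS+bLF and control lungs overlapped (0.20 ± 0.36). The bLF difference with LPS minus the bLF difference without it (the interaction) was −1.30 ± 0.51 on the log2 scale, the smallest interaction p of the 47 genes (adjusted p = 0.999). Without LPS replicate 1 these values were 0.71 for LPS versus control, −0.51 for LPS+bLF versus LPS and −0.68 for the interaction.

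Levels of Ccl9 were 12.96, 11.3 and 10.7 FPKM in LPS+bLF lungs, 50.3, 13.8 and 11.99 in LPS lungs, 11.5, 6.38 and 7.3 in bLF lungs and 6.96, 7.67 and 7.68 in control lungs. All LPS lungs and all LPS+bLF lungs were above all control lungs for Ccl9. The log2 fold change was 1.93 ± 0.54 for LPS versus control (adjusted p = 0.434), −1.24 ± 0.53 for LPS+bLF versus LPS (adjusted p = 0.684) and 0.69 ± 0.53 for LPS+bLF versus control. Without LPS replicate 1 it was 0.73 for LPS versus control and −0.04 for LPS+bLF versus LPS, so the second difference rested on that library. Ccr1, the receptor of both ligands, was at 1.5, 1.81 and 2.17 FPKM in LPS+bLF lungs, 4.49, 1.6 and 1.84 in LPS lungs, 1.18, 0.93 and 1.67 in bLF lungs and 1.51, 1.52 and 1.86 in control lungs.

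**Figure D3:**
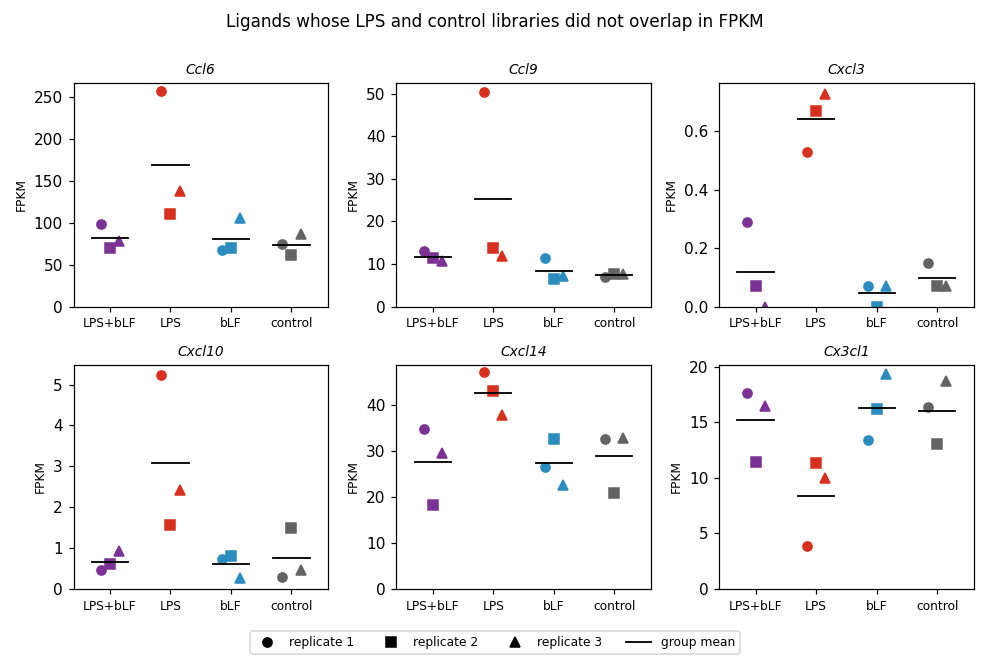
FPKM of 6 ligands in each library by group (LPS+bLF, LPS, bLF, control), with replicate number as marker shape and the group mean as a line, 3 libraries per group. Ccl6, Ccl9, Cxcl3, Cxcl10 and Cxcl14 were higher in every LPS lung than in every control lung, and Cx3cl1 was lower. For Ccl6, Ccl9 and Cxcl10 the highest point is LPS replicate 1.

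Monocyte and interstitial macrophage markers were also higher in LPS lungs. Their summed level over 17 genes was 1482 to 2632 FPKM in LPS+bLF lungs, 2078 to 2844 in LPS lungs, 1312 to 1755 in bLF lungs and 904 to 1405 in control lungs, and none of the 17 was at 0 in any library. Of the 17, 12 had an unadjusted p under 0.05 as higher in LPS than in control (5.43% of all tested genes), and 7 as lower in LPS+bLF than in LPS (3.52% of all tested genes). Of 14 alveolar macrophage markers, 6 were higher and 0 lower in LPS than in control at that limit (5.43% and 1.72% of all tested genes). In LPS+bLF versus LPS, 1 was higher and 2 were lower (3.39% and 3.52%). Their summed level was 387 to 695 FPKM in LPS+bLF lungs, 485 to 670 in LPS lungs, 427 to 490 in bLF lungs and 432 to 538 in control lungs. The part of macrophage number in the Ccl6 and Ccl9 differences was not tested.

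Ccl5, made by T cells and NK cells, was the third most abundant chemokine gene and was uneven among LPS lungs. The Ccl5 values were 89.96, 179 and 88.1 FPKM in LPS+bLF lungs, 14.6, 321 and 307 in LPS lungs, 85.7, 114 and 90.6 in bLF lungs and 56.8, 64.98 and 79.7 in control lungs. LPS replicate 1 was below all other libraries, and LPS replicates 2 and 3 were above all others. With all libraries the log2 fold change for LPS versus control was 1.64 ± 0.72 (adjusted p = 0.676). Without LPS replicate 1 it was 2.18 and passed the test (edgeR adjusted p = 0.0319). All LPS+bLF lungs and all bLF lungs were above all control lungs for Ccl5, at 0.89 ± 0.71 and 0.55 ± 0.70 on the log2 scale (adjusted p = 0.832 and 1.00). LPS+bLF versus LPS was −0.75 ± 0.70, and −1.30 without LPS replicate 1 (adjusted p = 0.828 and 0.516). With LPS replicate 1 and LPS+bLF replicate 2 both left out, a choice made after the values were seen, the interaction for Ccl5 was −2.31 (adjusted p = 0.0465), 1 of 2 genes called (0.0146%).

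Markers of cytotoxic cells also had their lowest library in LPS replicate 1 and their highest in LPS replicates 2 and 3, but not the raised value of Ccl5 in LPS+bLF replicate 2. The 13 NK cell and cytotoxic lymphocyte markers summed to 98.8, 87.0 and 80.9 FPKM in LPS+bLF lungs, 12.1, 271 and 236 in LPS lungs, 88.1, 105 and 72.5 in bLF lungs and 73.5, 61.6 and 76.9 in control lungs. Klre1, Gzmb and Fasl were at 0 in LPS replicate 1 and in no other library. The part of NK and T cell number in these levels was not tested. Ccl3 and Ccl4, made by activated macrophages and cytotoxic lymphocytes, were at 0.21 to 5.87 and 1.09 to 6.62 FPKM with overlapping groups, also with their lowest value in LPS replicate 1.

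**Figure D4:**
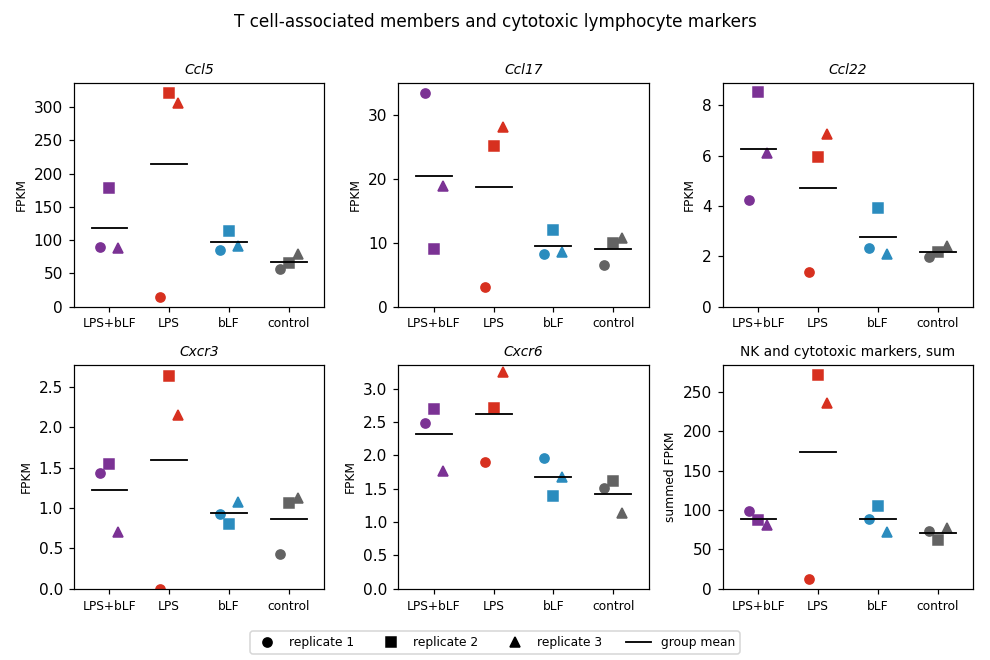
FPKM of Ccl5, Ccl17, Ccl22, Cxcr3 and Cxcr6 in each library by group, and the summed FPKM of 13 NK cell and cytotoxic lymphocyte markers, with replicate number as marker shape and the group mean as a line, 3 libraries per group. LPS replicate 1 is the lowest library for Ccl5, Ccl17, Ccl22, Cxcr3 and the markers, but not for Cxcr6. LPS replicates 2 and 3 are the highest for Ccl5, Cxcr3, Cxcr6 and the markers.

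Ccl17 and Ccl22, ligands of Ccr4 that dendritic cells and macrophages make and that attract type 2 helper and regulatory T cells, had their highest libraries in the LPS+bLF and LPS groups. Ccl22 was at 4.23, 8.54 and 6.09 FPKM in LPS+bLF lungs, 1.39, 5.94 and 6.85 in LPS lungs, 2.32, 3.94 and 2.08 in bLF lungs and 1.97, 2.18 and 2.42 in control lungs. All LPS+bLF lungs were above all control lungs for Ccl22, with a log2 fold change of 1.58 ± 0.48 (adjusted p = 0.832), and 1.26 without LPS+bLF replicate 2. LPS and control lungs overlapped through LPS replicate 1 (1.09 ± 0.47, adjusted p = 0.676), and without it the difference was 1.49 (adjusted p = 0.195). Levels of Ccl17 were 33.6, 9.02 and 18.99 FPKM in LPS+bLF lungs, 3.06, 25.2 and 28.1 in LPS lungs, 8.24, 11.98 and 8.54 in bLF lungs and 6.53, 10.1 and 10.7 in control lungs. Ccl17 had the same lowest library, LPS replicate 1, and its log2 fold change was 1.18 ± 0.63 for LPS+bLF versus control and 1.02 ± 0.63 for LPS versus control, or 1.5 without LPS replicate 1. Their receptor Ccr4 was below the filter at 0 to 0.07 FPKM. The summed level of 14 dendritic cell markers was 91.7 to 138 FPKM in LPS+bLF lungs, 74.1 to 109 in LPS lungs, 63.4 to 93.4 in bLF lungs and 49.4 to 86.4 in control lungs, with Cd209a and Il12b at 0 in LPS replicate 1; their part in these levels was not tested.

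Ccr6, carried by B cells, dendritic cells and type 17 helper T cells, was higher in LPS+bLF lungs than in control lungs. The Ccr6 values were 0.80, 1.34 and 0.50 FPKM in LPS+bLF lungs, 0.14, 0.45 and 0.57 in LPS lungs, 0.42, 0.53 and 0.26 in bLF lungs and 0.23, 0.22 and 0.37 in control lungs. All LPS+bLF lungs were above all control lungs (1.73 ± 0.54; adjusted p = 0.832), and against LPS lungs the difference was 1.25 ± 0.53 with overlap (adjusted p = 0.684), and 0.77 without LPS+bLF replicate 2. Its ligand Ccl20, an epithelial product, did not show this order. Ccl20 was at 0.61, 1.43 and 1.21 FPKM in LPS+bLF lungs, 0.41, 2.17 and 1.01 in LPS lungs, 5.91, 0.82 and 0.91 in bLF lungs and 0.11, 1.76 and 0.51 in control lungs. The highest Ccl20 value was bLF replicate 1, and the log2 fold change for bLF versus control was 1.59 ± 1.00 (adjusted p = 1.00), and 0.09 without that library or 3.05 without control replicate 2. Of the remaining mucosal and skin ligands, Ccl25 attracts gut-homing T cells through Ccr9. Levels of Ccl25 were 1.86, 2.24 and 1.86 FPKM in LPS+bLF lungs, 1.16, 2.35 and 2.2 in LPS lungs, 2.46, 2.73 and 2.84 in bLF lungs and 2.76, 1.39 and 1.96 in control lungs. All bLF lungs were above all LPS+bLF and all LPS lungs for Ccl25, while bLF and control lungs overlapped. Its log2 fold change for bLF versus control was 0.39 ± 0.33 (adjusted p = 1.00), and 0.63 without control replicate 1 or 0.22 without control replicate 2. The Ccl27a values were 13.7, 13.5 and 11.4 FPKM in LPS+bLF lungs, 5.21, 7.73 and 11.6 in LPS lungs, 13.1, 17.1 and 13.2 in bLF lungs and 9.46, 12.9 and 12.2 in control lungs. All bLF lungs were above all control lungs for Ccl27a in FPKM, though not after TMM scaling of the counts, and its reads are partly shared with copies of the gene. Ccl1, Ccl28, Ccr8 and Ccr9 were below the filter, at 0 to 0.43 FPKM, and Ccr10 was at 0.08 to 0.85 FPKM.

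Ligands that organise lymphoid tissue were set apart by 1 library. Ccl21a, which lymphatic vessels and stroma make to bring in Ccr7-bearing lymphocytes and dendritic cells, was the second most abundant chemokine gene. Ccl21a was at 206, 675 and 230.3 FPKM in LPS+bLF lungs, 154, 195 and 292 in LPS lungs, 137, 237 and 162 in bLF lungs and 109, 158 and 189 in control lungs. All LPS+bLF lungs were above all control lungs, with a log2 fold change of 1.35 ± 0.46 (adjusted p = 0.832), and 0.54 without LPS+bLF replicate 2. Against LPS lungs the difference was 0.81 ± 0.46, and 0.00 without that library. Levels of Ccl19 were 1.51, 68.3 and 2.32 FPKM in LPS+bLF lungs, 0, 2.36 and 2.59 in LPS lungs, 3.24, 1.13 and 2.28 in bLF lungs and 1.83, 1.96 and 2.57 in control lungs. Ccl19, the other Ccr7 ligand, thus had 1 high library, and the remaining 11 were at 0 to 3.24 FPKM. Its log2 fold change was 3.98 ± 1.40 for LPS+bLF versus LPS and 3.58 ± 1.37 for LPS+bLF versus control (adjusted p = 0.684 and 0.832), and 0.30 and −0.11 without LPS+bLF replicate 2. Cxcl13, which brings Cxcr5-bearing B cells into follicles, was at 0.92, 10.04 and 1.47 FPKM in LPS+bLF lungs, 0.89, 1.2 and 1.9 in LPS lungs, 4.27, 1.68 and 0.67 in bLF lungs and 0.65, 1.96 and 3.33 in control lungs, with the same high library.

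The receptors of these ligands had the same highest library. The Ccr7 values were 7.88, 15 and 7.28 FPKM in LPS+bLF lungs, 1.4, 7.23 and 7.63 in LPS lungs, 5.5, 5.92 and 3.81 in bLF lungs and 7.02, 6.41 and 8.36 in control lungs. All bLF lungs were below all control lungs for Ccr7 (−0.50 ± 0.47; adjusted p = 1.00), and its interaction was 1.46 ± 0.66 (adjusted p = 0.999). This became 1.01 when LPS+bLF replicate 2 was removed and 1.04 when LPS replicate 1 was. Over all omissions, that of both libraries included, the Ccr7 interaction lay between 0.59 and 1.80. Cxcr5 was at 1.55, 4.83 and 1.36 FPKM in LPS+bLF lungs, 0, 1.51 and 1.46 in LPS lungs, 1.21, 1.43 and 0.52 in bLF lungs and 0.79, 1.33 and 1.68 in control lungs. The 12 B cell markers summed to 297, 682 and 263 FPKM in LPS+bLF lungs, 66.0, 215 and 201 in LPS lungs, 245, 223 and 93.8 in bLF lungs and 190.1, 143 and 252 in control lungs, with Ms4a1 and Bank1 at 0 in LPS replicate 1. Glycam1, a product of the high endothelial venules of lymph nodes, was at 70.9 FPKM in LPS+bLF replicate 2 and at 0 to 0.44 in the other 11 libraries. The part of lymphoid tissue in the library of LPS+bLF replicate 2 was not tested.

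**Figure D5:**
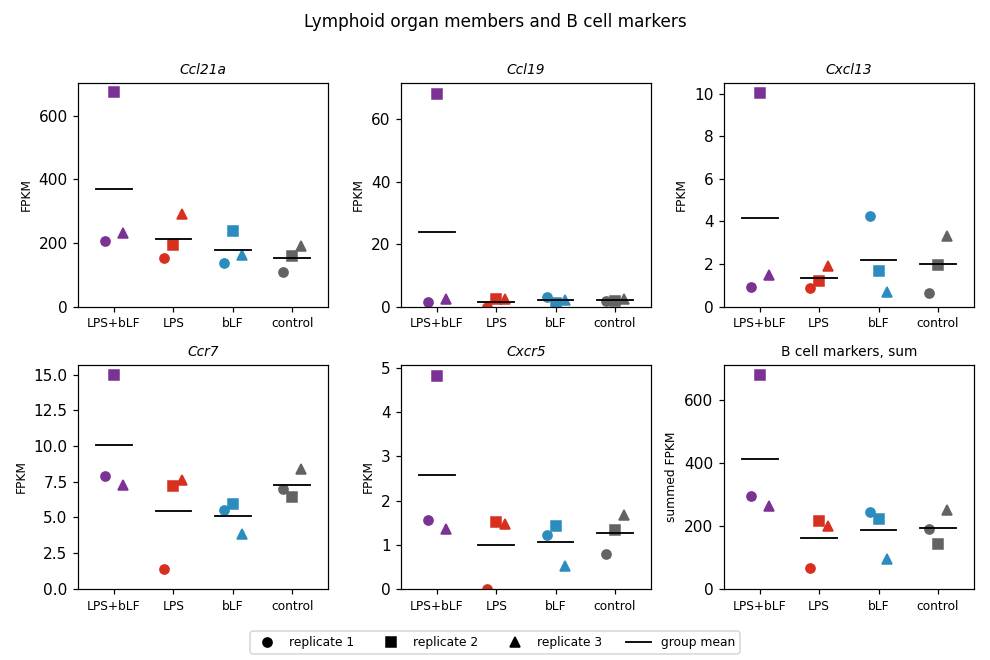
FPKM of Ccl21a, Ccl19, Cxcl13, Ccr7 and Cxcr5 in each library by group, and the summed FPKM of 12 B cell markers, with replicate number as marker shape and the group mean as a line, 3 libraries per group. LPS+bLF replicate 2 is the highest point in all 6 panels, and LPS replicate 1 is the lowest for Ccl19, Ccr7, Cxcr5 and the B cell markers.

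Cxcl12 and its receptor Cxcr4, which retain leukocytes and progenitors in tissue, had overlapping groups. Cxcl12 was at 36.6, 43.5 and 36.3 FPKM in LPS+bLF lungs, 28.6, 47.8 and 61.5 in LPS lungs, 45.1, 29.5 and 37.9 in bLF lungs and 41.5, 40.5 and 42.7 in control lungs. All 4 pairwise log2 fold changes of Cxcl12 lay between −0.21 and 0.09. Levels of Cxcr4 were 35.8, 22.8 and 25.1 FPKM in LPS+bLF lungs, 7.53, 32.5 and 26.6 in LPS lungs, 19.98, 28.7 and 24.5 in bLF lungs and 34.5, 19.02 and 45.1 in control lungs. LPS replicate 1 was the lowest for Cxcr4, and no comparison had an unadjusted p under 0.05.

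Cx3cl1, or fractalkine, is a membrane-bound ligand of endothelium and epithelium that is shed and binds Cx3cr1 on monocytes and macrophages. It was the only 1 of the 47 genes that was lower in all LPS lungs than in all control lungs and higher in all LPS+bLF lungs than in all LPS lungs. The Cx3cl1 values were 17.6, 11.4 and 16.5 FPKM in LPS+bLF lungs, 3.81, 11.3 and 9.98 in LPS lungs, 13.4, 16.2 and 19.4 in bLF lungs and 16.4, 12.99 and 18.7 in control lungs. The log2 fold change was −0.93 ± 0.29 for LPS versus control (adjusted p = 0.519) and 0.90 ± 0.29 for LPS+bLF versus LPS (adjusted p = 0.684). The smallest gap was narrow, with LPS+bLF replicate 2 at 11.4 FPKM and LPS replicate 2 at 11.3 FPKM. Without LPS replicate 1 the values were −0.63 and 0.61. LPS+bLF versus control was −0.03 ± 0.29, and the interaction was 0.85 ± 0.41 (adjusted p = 0.999). Cx3cr1 was at 2.08, 1.72 and 2.02 FPKM in LPS+bLF lungs, 1.56, 3.98 and 2.56 in LPS lungs, 1.09, 1.19 and 0.85 in bLF lungs and 2.62, 0.78 and 2.13 in control lungs. All bLF lungs were below all LPS+bLF and all LPS lungs for Cx3cr1, and bLF and control lungs overlapped. bLF versus control was −0.77 ± 0.37, the smallest p of that comparison among the 47 genes (adjusted p = 1.00), and −0.46 without control replicate 1.

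Cxcl16, the other membrane-bound chemokine, binds Cxcr6 on memory T and natural killer T cells. Levels of Cxcl16 were 68.9, 42.9 and 69.6 FPKM in LPS+bLF lungs, 68.6, 70.6 and 58.03 in LPS lungs, 45.3, 62.4 and 61.6 in bLF lungs and 58.8, 42.1 and 62.7 in control lungs. The groups overlapped for the ligand, at 0.35 ± 0.22 for LPS versus control and 0.21 ± 0.22 for LPS+bLF versus control. The Cxcr6 values were 2.49, 2.69 and 1.77 FPKM in LPS+bLF lungs, 1.9, 2.71 and 3.25 in LPS lungs, 1.96, 1.39 and 1.67 in bLF lungs and 1.51, 1.62 and 1.13 in control lungs. All LPS lungs and all LPS+bLF lungs were above all control lungs for the receptor, at 0.91 ± 0.29 (adjusted p = 0.553) and 0.74 ± 0.29 (adjusted p = 0.832). Cxcr6 was not low in LPS replicate 1 as Cxcr3 was, and without that library its LPS difference was 1.01. The 16 T cell markers summed to 104, 183 and 101 FPKM in LPS+bLF lungs, 36.4, 122 and 125 in LPS lungs, 91.4, 94.6 and 67.4 in bLF lungs and 84.7, 70.4 and 94.3 in control lungs; their part in the Cxcr6 level was not tested.

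Cxcl14, an epithelial and stromal chemokine, was higher in LPS lungs than in all the others. Cxcl14 was at 34.8, 18.3 and 29.7 FPKM in LPS+bLF lungs, 47.3, 43.1 and 37.8 in LPS lungs, 26.6, 32.6 and 22.7 in bLF lungs and 32.7, 20.98 and 32.9 in control lungs. The differences were 0.66 ± 0.25 for LPS versus control and −0.67 ± 0.25 for LPS+bLF versus LPS (adjusted p = 0.652 and 0.684), and 0.45 and −0.45 without LPS replicate 1. Cxcl17, a mucosal chemokine of airway epithelium, was most uneven among control lungs. Levels of Cxcl17 were 12.8, 8.7 and 5.96 FPKM in LPS+bLF lungs, 7.66, 18.2 and 31.1 in LPS lungs, 29.6, 11.6 and 21.2 in bLF lungs and 5.38, 82.2 and 21.8 in control lungs. LPS+bLF versus control was −2.05 ± 0.83 with overlap (adjusted p = 0.832), and −0.47 without control replicate 2. bLF versus control was −0.89 ± 0.80 for Cxcl17 (adjusted p = 1.00), and 0.69 without control replicate 2. Control replicate 2, the highest Cxcl17 library, also had 23.8% of its counts in Scgb1a1, the secretoglobin of club cells; the part of airway tissue in this value was not tested. Xcr1, carried by cross-presenting dendritic cells, was at 0.03 to 0.58 FPKM, and its ligand Xcl1 was below the filter at 0 to 1.04 FPKM.

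The atypical receptors bind chemokines without G protein signalling. Ackr2, which scavenges inflammatory CC ligands, was lower in LPS+bLF lungs than in control lungs. The Ackr2 values were 10.5, 7.39 and 8.59 FPKM in LPS+bLF lungs, 7.65, 10.98 and 14.8 in LPS lungs, 9.59, 11.73 and 20.2 in bLF lungs and 12.4, 16.2 and 17.4 in control lungs. All LPS+bLF lungs were below all control lungs, at −0.78 ± 0.30 (adjusted p = 0.832), while LPS versus control was −0.45 ± 0.30 with overlap. Ackr3, a scavenger of Cxcl12, was high in 1 LPS lung. Ackr3 was at 7.89, 8.82 and 7.26 FPKM in LPS+bLF lungs, 29.7, 10.3 and 8.53 in LPS lungs, 8.31, 6.44 and 7.3 in bLF lungs and 11.4, 7.49 and 9.88 in control lungs. LPS+bLF versus LPS was −1.12 ± 0.46 (adjusted p = 0.684) with LPS replicate 1 and −0.13 without it. Ackr4, which takes up Ccl19 and Ccl21, was at 0.22 to 5.83 FPKM, lowest in LPS replicate 1. Ackr1, a binding protein of venular endothelium, was at 0.03 to 2.37 FPKM.

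Lactoferrin alone was set against control to see its action without LPS. None of the 47 genes had an unadjusted p under 0.05, where 1.35% of all tested genes did, and 0% of all genes passed adjustment (smallest adjusted p 1.00). In FPKM, Ccl5 and Ccl27a were above control in all 3 bLF lungs and Ccr7 was below. Of all 13735 tested genes 2.21% and 5.74% were so, or 303 and 789. After TMM scaling of the counts, 1 of the 47 was above and 2 were below, against 596 and 624 of all tested genes. The 6 genes with the smallest p were Cx3cr1, Ccl20, Ccl24, Cxcr1, Ccl25 and Cxcl17, given above except for Cxcr1 at −1.14 ± 0.89 on the log2 scale, or −0.54 without control replicate 1. The median over the 47 genes was −0.05, and −0.03 over all tested genes.

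LPS+bLF was also set against control. Without overlap in FPKM, Ccl5, Ccl9, Ccl21a, Ccl22, Ccr6 and Cxcr6 were higher in all 3 LPS+bLF lungs and Ackr2 was lower. Of all 13735 tested genes 3.91% and 7.8% were so, or 537 and 1071. After TMM scaling of the counts 923 and 787 were so, against 6 and 1 of the 47. Unadjusted p was under 0.05 for 7 of the 47 genes, 5 higher (Ccl22, Ccr6, Ccl21a, Ccl19 and Cxcr6) and 2 lower (Ackr2 and Cxcl17), against 4.79% of all tested genes. None of the 47 and 0% of all genes passed adjustment (smallest adjusted p 0.832). The median was 0.16 over the 47 genes and 0.01 over all tested genes.

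The interaction asked whether lactoferrin acted differently with and without LPS. An unadjusted p under 0.05 was found for 2 of the 47 genes, Ccl6 and Ccr7, 1 lower and 1 higher, against 2.8% of all tested genes (1.33% higher, 1.48% lower), and none of the 47 and 0% of all genes passed adjustment. Next in order came Cx3cl1 at 0.85 ± 0.41, Ccl19 at 3.93 ± 1.89, Ccl9 at −1.43 ± 0.75 and Cxcl10 at −1.96 ± 1.10 on the log2 scale. The interaction without LPS replicate 1 was 0.55 for Cx3cl1, −0.22 for Ccl9 and −1.15 for Cxcl10, and without LPS+bLF replicate 2 it was 0.25 for Ccl19. Cxcl10 was at −3.08 without control replicate 2. By class, the interaction was above 0 for 0 of 5 macrophage CC, 2 of 6 monocyte and eosinophil CC, 2 of 3 neutrophil-attracting CXC, 0 of 1 of the Cxcr3 axis, 3 of 4 lymphoid and homeostatic, 3 of 6 T helper, skin and mucosa CC, and 1 of 4 membrane-bound and other ligands. It was above 0 for 42.6% of the 47 genes and 53.3% of all tested genes. The median was −0.18 over the 47 genes and 0.03 over all tested genes. The macrophage CC and lymphoid classes hold genes that LPS replicate 1 and LPS+bLF replicate 2 set apart, as given above.

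Other genes around the chemokine system were counted from 4 lists. Of 20 tested genes of other chemoattractants and their receptors, 5 were higher and 1 lower in LPS than in control at an unadjusted p under 0.05. Over all tested genes the shares at that limit were 5.43% higher and 1.72% lower in LPS versus control, and 3.39% higher and 3.52% lower in LPS+bLF versus LPS. C3ar1, the receptor of complement fragment C3a (1.68 ± 0.29), and Fpr2, a formyl peptide receptor (1.2 ± 0.28), were higher, and both were lower in LPS+bLF than in LPS (−0.98 ± 0.28 and −0.83 ± 0.28). Of 46 genes of chemokine receptor signalling, 8 were higher and 0 lower in LPS than in control, led by Pik3r5, a regulatory subunit of the phosphoinositide 3-kinase that G protein-coupled receptors activate (1.39 ± 0.20, adjusted p = 0.0826). It was −0.53 ± 0.20 in LPS+bLF versus LPS. Of 18 genes of chemokine processing and presentation, 7 were higher and 0 lower in LPS than in control, and 0 were higher and 5 lower in LPS+bLF than in LPS. They included Adam10, the protease that sheds Cx3cl1 and Cxcl16 (0.44 ± 0.16 and −0.48 ± 0.16), and the matrix protease Mmp3 (2.45 ± 0.86 and −2.09 ± 0.85).

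Of 29 genes that induce chemokines, 5 were higher and 0 lower in LPS than in control at an unadjusted p under 0.05. Of all tested genes 5.43% were higher and 1.72% lower at that limit. Tnfaip3, a feedback inhibitor of NF-κB (0.69 ± 0.20), and Cd14, a co-receptor for LPS (0.84 ± 0.34), were among the 5. In LPS+bLF versus LPS both were lower (−0.56 ± 0.20 and −1.07 ± 0.34), while lymphotoxin beta (Ltb), which drives lymphoid stroma to make Ccl19, Ccl21a and Cxcl13, was higher (1.35 ± 0.38). Ltb was highest in LPS+bLF replicate 2, at 221 FPKM against 26.0 to 116 FPKM in the other 11 libraries. No gene of the 4 lists passed adjustment over all genes in any of the 5 comparisons, and none of the 4 lists had a gene with an unadjusted p under 0.05 in bLF versus control.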

How the data were processed

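Total lung RNA was sequenced after oligo(dT) selection, per the labels' protocols, in 12 libraries from 12 mice, 3 in each of 4 groups taken from the labels. The authors deposited an expected count and an FPKM value per gene in each library, for 17920 genes. The submitters' processing notes name HISAT2 2.1.0, RSEM 1.2.8 and mm10, with no role or order. Expected counts share out reads that match several genes, and 4.12 to 5.91% of genes had no whole count. Expected counts were rounded and tested with edgeR 4.0.16 in R 4.3.3: TMM scaling, 4 group means in 1 quasi-likelihood model over the 13735 genes that passed the filter, and Benjamini-Hochberg adjustment over all of them, with a call at an adjusted p under 0.05. The biological coefficient of variation was 0.352. FPKM values as the authors deposited them serve for levels and were not tested, apart from the limma 3.58.1 alternative. DESeq2 1.42.0, other scalings and filters, a replicate block and the removal of each library were tried as alternatives, and the code was tested on simulated data.

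Every gene averaging at least 10 FPKM, every gene with an unadjusted p under 0.05 (the 6 smallest p-values where fewer than 6 passed), and Ccl2, Cxcl1, Cxcl2 and Cxcl10 whatever their values, were described with every library's value; other genes were added after their values were seen. The genes and lists were chosen with earlier results of these data known. No chance test of a list was made. The labels do not pair libraries across groups: same-numbered libraries correlated at a median of 0.036 in their deviations from group means. Promoters and symbols came from RefSeq on GRCm38.p6, and shared stretches from GENCODE M21 transcripts. Values of 1 tested receptor gene are not reported here.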

Additional observations from a re-analysis of the deposited data

How the results depend on the processing

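Counts of called genes moved most with the test and with 1 library. For LPS versus control, edgeR called 0 genes, DESeq2 138, limma 2 on log2(FPKM + 1) and 3 on log2(FPKM + 5), and edgeR 0 to 32 when libraries were left out, with 25 without LPS replicate 1 and 32 without both LPS replicate 1 and LPS+bLF replicate 2, an omission chosen after seeing the data. Of the 47 chemokine and receptor genes these included 2 with DESeq2 (Ccl9 and Ccl6) and 0 to 1 with libraries left out (Ccl5). For LPS+bLF versus LPS, DESeq2 called 7 genes and the omissions 0 to 2, and neither called any of the 47. DESeq2 called 1 gene for bLF versus control, 12 for LPS+bLF versus control and 1 for the interaction, none of them among the 47. The omissions called 0 to 2 genes and 0 to 1 of the 47 in the interaction, the 1 being Ccl5. The median log2 fold change of the chemokine and receptor genes tested for LPS versus control lay between 0.08 and 0.46 in the 23 alternatives, of which the weaker filter tested 59 and the stricter one 39 of them. For LPS+bLF versus LPS the median lay between −0.25 and 0.12. With a replicate block 0 genes were called in the 5 comparisons, the median of the 47 for LPS versus control was 0.38, and 2 of 12 libraries correlated best with their own number. Of the log2 fold changes under the alternatives for the 39 pairs of gene and comparison chosen by p-value (22 genes), 876 of 885 kept their direction and their side of the threshold, 4 passed it and 5 turned. These pairs were chosen on the same data and none had passed the threshold in the main test. Staying on the same side was thus largely set in advance. Size was not counted: without LPS replicate 1, Ccl9 in LPS+bLF versus LPS went from −1.24 to −0.04 and counts as kept. Ackr3 went from −1.12 to −0.13 in the same comparison and also counts as kept. The values that turned were 4 of Ccl19 and 1 of Cxcl17. Ccl19 was at −0.26 for LPS+bLF versus LPS and −0.31 for the interaction with both named libraries left out (omissions gave −0.26 to 4.53 and −0.31 to 4.48), and at −0.11 for LPS+bLF versus control without LPS+bLF replicate 2, with or without LPS replicate 1 (−0.11 to 4.13). Cxcl17 was at 0.69 for bLF versus control without control replicate 2 (−1.40 to 0.69). The cause was not tested. The interaction was not run with only the groups compared, since it needs all 4. Genes with few counts in most libraries, such as Cxcl3, Cxcl2 and Cxcr1, are limited by depth.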
